A study of Mus musculus with 8 samples.

Results

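The 35 genes described here encode the nuclear receptors of mouse liver that lie outside the circadian oscillator, that is, the receptor superfamily without the REV-ERB and ROR receptors. They were chosen by gene symbol, and each of the 35 symbols had 1 row among the 55421 transcripts of the deposited tables. RNA was sequenced from 8 livers of male C57BL/6J mice, which had eaten a diet with 45% of its calories from fat. They were obtained at 4 weeks of age, received oral gavage on alternate days from ZT8 to ZT10 (zeitgeber time, counted in hours from the start of light), and were killed at 30 weeks. Control mice received the vehicle, phosphate-buffered saline, and treated mice received Sudachitin, a polymethoxyflavone of citrus peel, at 100 mg per kg of body weight. Livers came from ZT6, in the light phase (day), or ZT18, in the dark phase (night), so the 4 groups were control ZT6, control ZT18, sudachitin ZT6 and sudachitin ZT18, with 2 mice each. All 8 mice shared strain, sex, diet and gavage, and no group on a normal diet or without gavage was analysed here. The labels name no transgene.

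Nuclear receptors are transcription factors, many of which are switched by a small lipophilic ligand such as a fatty acid, bile acid, sterol, retinoid, drug or hormone. Many bind DNA as a partner of a retinoid X receptor, recruiting corepressors without ligand and coactivators with it, whereas steroid receptors bind as pairs of their own kind and orphan receptors act without a known regulatory ligand. In hepatocytes these receptors control bile acid and cholesterol handling, fatty acid oxidation, lipogenesis, drug metabolism and glucose production, and several of those outputs follow a daily rhythm of feeding.

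Libraries held 13914116 to 17759630.5 counts in exons, of which the 35 receptors took 0.166% to 0.201%. The liver label fitted its markers, with 8 hepatocyte genes summing to 88469 to 107382 CPM (counts scaled to library size with the TMM method) against 1.84 to 3.68 CPM for 4 lymphocyte genes. Markers of intestine and pancreas summed to 124 to 196 CPM, with Fabp2 averaging 136 CPM, Cela1 15.9 CPM, Vil1 0.192 CPM and Prss2 0 CPM. Control ZT18 replicate 1 stood apart across the transcriptome, being the highest or lowest of the 8 libraries in 38.2% of all tested genes, but in 5 of the 31 tested receptors (16.1%). Its 12 male-biased liver genes summed to 3892 CPM, against 5458 to 13865.5 CPM in the other libraries, and its 8 female-biased genes to 315 CPM, against 0.998 to 28.4 CPM. None of 5 cholangiocyte markers passed between night and day, but all 5 had a log2 change above 0 (median 0.56), and their sum ran by day from 27.5 to 29.5 CPM in control and from 22.8 to 35.5 CPM in sudachitin livers, and by night from 45.9 to 76.4 CPM and from 32.6 to 62.1 CPM. Most of this sum came from 1 gene, Spp1, which averaged 32.2 CPM (14.8 to 66.7 over the 8 livers). Sox9 averaged 6.97 CPM, and the epithelial markers Krt19, Krt7 and Epcam averaged 0.802, 0.462 and 1.06 CPM. Of 8 Kupffer cell markers none passed between treatments, but all 8 had a difference above 0 with sudachitin at ZT6 (median log2 0.70, or 0.28 without sudachitin ZT6 replicate 2) and 4 at ZT18 (median 0.099). Their sum ran at ZT6 from 94.9 to 115 CPM in control and from 133 to 210 CPM in sudachitin livers, and at ZT18 from 87.0 to 149 CPM and from 125 to 127 CPM. The part of these cell types in the receptor results was not tested, and a change in the number of cells of a type cannot be told apart from a change in RNA per cell in whole liver. The titles carry codes whose starts differ between groups, so cage or handling, if the codes record them, cannot be told apart from group.

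Receptor levels spanned a wide range in these livers. On the FPKM scale (counts divided by exon length and library total), which allows genes of different length to be compared, 9 receptors averaged over 10, 15 lay between 1 and 10, and 7 lay between 0.05 and 1. The other 4 had too few counts to be tested. Hnf4a, a master regulator of hepatocyte identity, had the highest mean level at 52.4 FPKM (range 42.6 to 60.7 over 8 livers). Nr1i3, the constitutive androstane receptor CAR, followed at 34.7 FPKM (24.7 to 48.1), and Rxra, the main retinoid X partner, at 33.3 FPKM (23.7 to 40.7). Their ranges overlapped, and the first rank fell to Hnf4a in 7 libraries and to Nr1i3 in sudachitin ZT18 replicate 2. The level and rank of Nr1i3 may include reads of Tomm40l. That gene overlaps 936 of the 1405 exonic bases of Nr1i3 on the opposite strand, and the libraries are unstranded. The bile acid receptor FXR (Nr1h4) averaged 27.7 FPKM, the oxysterol receptor LXR alpha (Nr1h3) 25.7 FPKM and the orphan receptor Nr2f6 25.04 FPKM. In each library the 6 highest receptors made up 65.7% to 71.4% of the summed receptor FPKM.

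**Figure D1:**
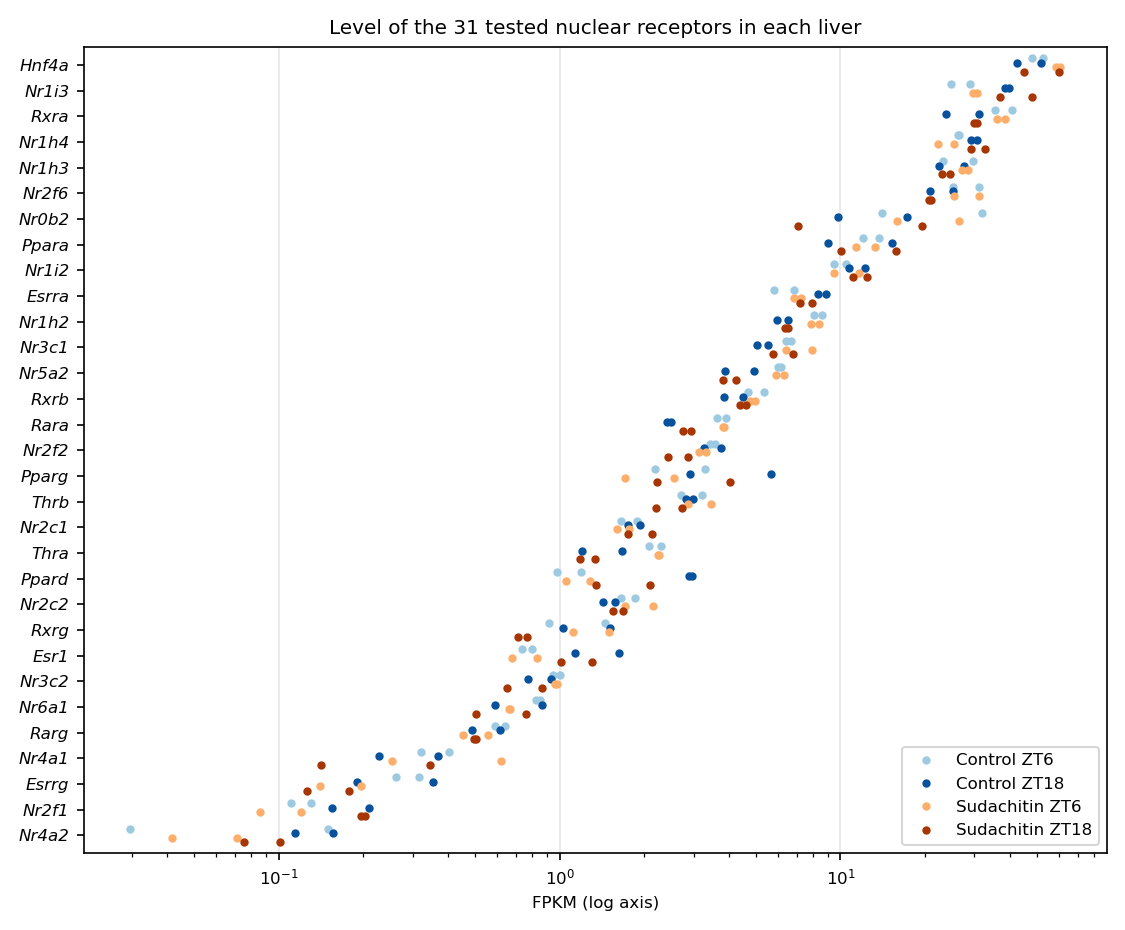
Level of the 31 tested receptors in each of the 8 livers, in FPKM on a log axis, sorted by mean level; each point is 1 mouse and colours mark the 4 groups. Hnf4a lies highest, with 42.6 to 60.7 FPKM, Nr0b2 spreads from 7.04 to 32.0 FPKM, and Nr4a2 lies lowest.

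At the other end, Vdr, the vitamin D receptor, had 5 counts over all 8 livers. Hnf4g and Rarb had 7 counts each, and the deposited Rarb row is a transcript of 358 bases with 2 exons, so longer forms of that receptor are not in it. Nr4a3, an early response receptor, had 27 counts, 12 of them in control ZT18 replicate 1. A library with 0 counts of one of these genes allows up to 3 counts, by counting error only, so differences between groups in these 4 genes were not detectable at this depth.

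Within receptor families, 1 member usually carried most of the FPKM. Rxra held 81.1% to 86.7% of the RXR total, Nr1h3 72.9% to 80.8% of the LXR total, Nr3c1 (the glucocorticoid receptor) 85.5% to 89.8% of the corticosteroid receptor total and Rara 76.9% to 89.5% of the retinoic acid receptor total. The thyroid hormone receptors were more evenly divided, with Thrb at 56.2% to 70.1%. Ppara, the fatty acid sensor that drives hepatic fatty acid oxidation, made up 76.2% and 78.1% of the PPAR total in control ZT6 livers and 64.1% and 60.7% in control ZT18 livers. In sudachitin livers its share was 79.1% and 78.6% at ZT6 and 65.1% and 78.5% at ZT18. The Ppard share of control livers was 5.46% and 7.70% by day and 12.2% and 19.8% by night, and that of sudachitin livers 8.96% and 6.24% by day and 8.74% and 10.4% by night, so only the control night livers lay above all others. Of the 2 xenobiotic sensors, Nr1i3 held 71.8% to 76.2% by day and 74.9% to 81.3% by night, ranges that overlapped. Its share may also include reads of Tomm40l.

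**Figure D2:**
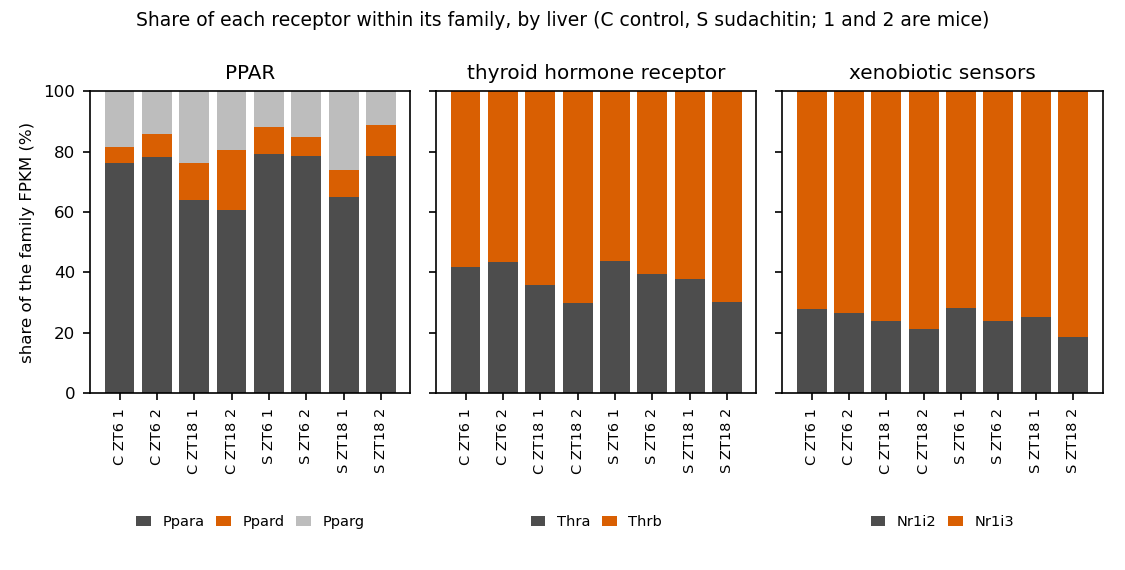
Share of each receptor in the summed FPKM of its family, in percent, for each of the 8 livers (C control, S sudachitin, 1 and 2 the mice of a group). The Ppard segment is widest in the control ZT18 livers, at 12.2% and 19.8%, and Thrb holds 56.2% to 70.1% of the thyroid hormone receptor total throughout.

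The first comparison was ZT18 against ZT6 with both treatments together, 4 livers against 4, in an additive edgeR model of treatment and time. Of 31 tested receptors, 3 rose at night (Ppard, Esr1 and Nr1i3) and 3 fell (Thra, Nr5a2 and Rara) at an adjusted p under 0.05, which is 19.4% of the receptors. Over all 14506 tested genes 3.68% were called, 1.86% higher and 1.82% lower. The ZT18 and ZT6 livers did not overlap in 13 receptors (41.9%), 6 higher and 7 lower at night, against 13% of all genes. The median log2 change was -0.089 over the 31 receptors, of which 11 were above 0, and 0.019 over all genes, of which 52.7% were above 0. The count rested on the full set of livers. It was 0 without control ZT6 replicate 1, 1 without control ZT6 replicate 2 (Thra), control ZT18 replicate 2 (Esr1), sudachitin ZT6 replicate 1 (Ppard) or sudachitin ZT6 replicate 2 (Esr1), and 2 without sudachitin ZT18 replicate 1. It was 5 without sudachitin ZT18 replicate 2 (Ppard lost) and 7 without control ZT18 replicate 1, the library that stood apart, when Nr1h4 joined the same 6. Over all genes the number called ran from 164 to 1048 in these fits, against 534 with every library.

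**Figure D3:**
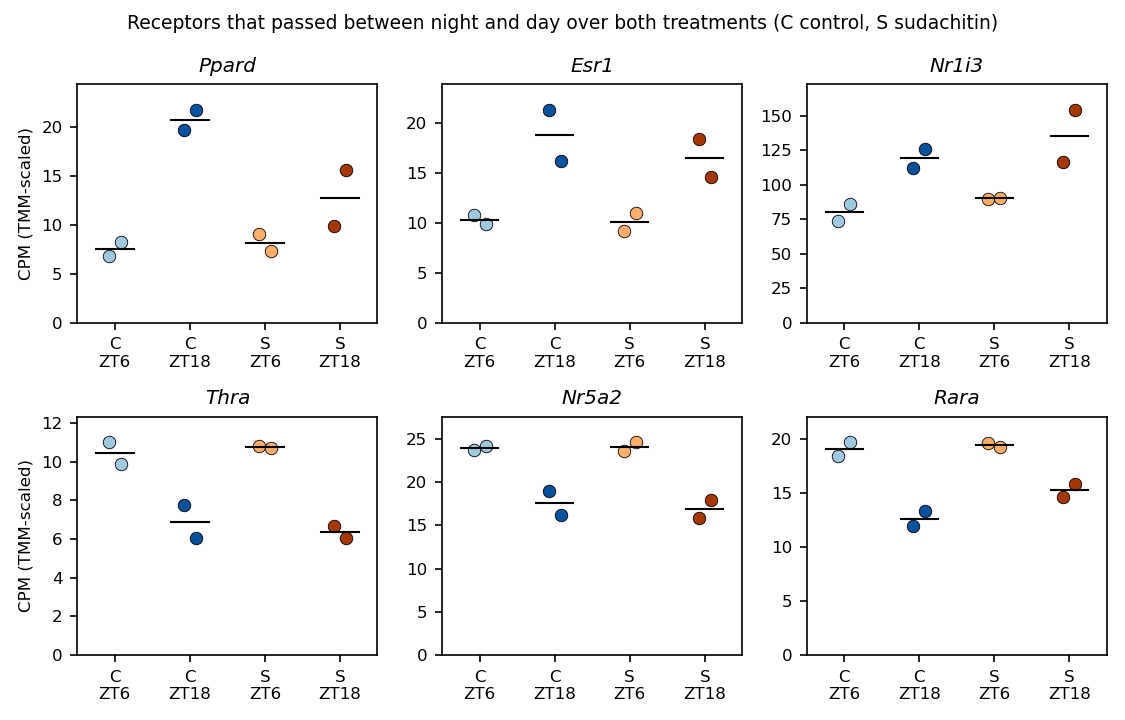
Expression of the 6 receptors that passed between ZT18 and ZT6 over both treatments, in TMM-scaled CPM, for control (C) and sudachitin (S) livers; each point is 1 mouse and each line the mean of 2. In every panel the 4 night livers lie on one side of the 4 day livers, above them for Ppard, Esr1 and Nr1i3 and below them for Thra, Nr5a2 and Rara.

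Among the lipid and bile acid sensors, Ppard, the broadly expressed receptor for fatty acids, changed most. Its level was 6.84 and 8.24 CPM in the control day livers, 19.7 and 21.7 in the control night livers, 9.04 and 7.30 in the treated day livers and 9.84 and 15.6 in the treated night livers. All 4 night livers lay above all 4 day livers, and the 2 control night livers were the highest. The change was 1.05 on the log2 scale (SE 0.21, edgeR adjusted p = 0.0298), and it passed in 3 of the 8 fits that left out a library. With limma on log2(FPKM + 0.1) its adjusted p was 0.0525. The deposited Ppard transcript runs on the plus strand of GRCm38 chromosome 17 from 28232700 to 28301474, with 8 exons. The bases before it, printed because it is the receptor with the largest rise, come from a RefSeq promoter window of GRCm38.p6 without the part that lies in an exon. The 250-base window held none of 5 motifs searched on both strands: CACGTG (the E-box bound by clock activators), TTATGTAA (D-box), AGGTCA (receptor half-site), TAGGTCA (core of the REV-ERB and ROR element, which contains the half-site) and TGACGTCA (cAMP element). The print therefore has no capitals.
Ppard, chr17:28232504-28232699, plus strand: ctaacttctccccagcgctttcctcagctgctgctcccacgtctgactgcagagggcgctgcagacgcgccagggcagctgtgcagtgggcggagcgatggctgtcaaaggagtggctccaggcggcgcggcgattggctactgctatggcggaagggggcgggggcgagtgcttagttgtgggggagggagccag
Such a match is a description of letters. Among all 32851 windows of 250 upstream bases, 6.02% held CACGTG, 0.819% TTATGTAA, 14.0% AGGTCA, 2.23% TAGGTCA and 1.55% TGACGTCA. Of the 32 receptors with a window, 3 held CACGTG (Nr1i3, Thrb and Nr0b2), 4 held AGGTCA (Nr1h4, Rarg, Nr5a2 and Nr6a1) and 0 held the other 3 motifs.

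The other lipid sensors did not pass over both treatments. Nr1h2, which encodes LXR beta, came closest. It stood at 36.4 and 33.9 CPM by day and 26.8 and 26.5 by night in control livers, and 35.8 and 32.8 by day and 28.3 and 29.6 by night with sudachitin. Every night liver lay below every day liver, with a log2 change of -0.32 (SE 0.077, adjusted p = 0.0543). Nr1h4, which encodes FXR, was at 110 and 108 CPM in the control day livers, 118 and 135 in the control night livers, 93.6 and 104 in the treated day livers and 127 and 146 in the treated night livers. It did not overlap between night and day either, and its log2 change was 0.34 (SE 0.095, adjusted p = 0.0873). Pparg, a regulator of fat storage that is low in lean liver, had a log2 change of 0.64 (SE 0.25, adjusted p = 0.188), with 6.52 to 12.4 CPM by day and 8.93 to 20.6 CPM by night. Its level was highest in control ZT18 replicate 1. Ppara and Nr1h3 showed log2 changes of 0.04 (SE 0.18) and -0.10 (SE 0.099).

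Targets of these receptors were taken from lists chosen with earlier results of these data known. The counts and signs of all target lists are therefore descriptions and no test of receptor activity. Over all tested genes, 52.7% had a night-to-day change above 0, 1.86% were called higher and 1.82% lower. These shares stand beside every gene list compared below between night and day over both treatments. All 15 PPAR alpha targets had a night-to-day log2 change above 0 (median 0.43). Of these, 4 rose at an edgeR adjusted p under 0.05, among them Acot1 and Pdk4. Acot1, an acyl-CoA thioesterase, went from 20.2 to 25.8 CPM over the ZT6 livers to 41.8 to 86.2 CPM over the ZT18 livers (log2 1.39, SE 0.21, adjusted p = 0.0103). Pdk4, which spares glucose by inhibiting pyruvate dehydrogenase, rose by 1.23 (SE 0.22, adjusted p = 0.0190). Without control ZT18 replicate 1, 10 of the 15 were above 0, the median was 0.22 and 5 rose. The count was 1 without control ZT6 replicate 1, control ZT6 replicate 2 or sudachitin ZT6 replicate 1, and 2 without sudachitin ZT6 replicate 2 or sudachitin ZT18 replicate 1. Of 9 LXR targets, 4 had a change above 0 (median -0.060). Abcg8, a sterol exporter into bile, fell by 0.65 (SE 0.12, adjusted p = 0.0216) and the other 8 did not pass. It did not pass without control ZT6 replicate 2, sudachitin ZT6 replicate 1 or sudachitin ZT18 replicate 1. In the list for FXR and its mediator SHP, 9 of 10 genes were tested, 4 had a change above 0 (median -0.038), 1 rose and 2 fell. Abcb11, which carries bile salts out of hepatocytes, fell by 0.81 at night (SE 0.080, adjusted p = 0.00192) and passed in all 8 fits that left out a library. Cyp7a1, the rate-limiting enzyme of bile acid synthesis, rose by 1.996 (SE 0.32, adjusted p = 0.0124) and passed in each of those fits but the one without sudachitin ZT6 replicate 1. Klb, an FGF receptor partner, fell by 0.63 (SE 0.12, adjusted p = 0.0231) and passed in 2 of those fits, those without control ZT6 replicate 2 and without control ZT18 replicate 1.

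Among the xenobiotic sensors, Nr1i3 was at 74.0 and 86.3 CPM by day and 112 and 126 by night in control livers, and 90.04 and 90.2 by day and 116 and 154 by night with sudachitin. All 4 night livers were above all 4 day livers, and the highest was sudachitin ZT18 replicate 2. The gene rose by 0.58 (SE 0.11, edgeR adjusted p = 0.0227) and passed in 3 of the 8 fits that left out a library. Of the 1405 exonic bases of the deposited Nr1i3 transcript (chromosome 1, 171213970 to 171218845, plus strand, 9 exons), 936 overlap exons of Tomm40l on the opposite strand. Tomm40l was at 115 to 144 CPM by day and 165 to 286 CPM by night and rose by 0.67 (SE 0.15, adjusted p = 0.0408). The libraries carry no strand information, so reads of these genes cannot be told apart where they overlap. Of the 6 receptors above, Thra has no window in the table and the window of Rara lies 9878 bases from its deposited transcript start. The window before Nr1i3 is printed because it was the only one of these 5 windows to hold the E-box letters, in capitals, 244 bases before the start.
Nr1i3, chr1:171213720-171213969, plus strand: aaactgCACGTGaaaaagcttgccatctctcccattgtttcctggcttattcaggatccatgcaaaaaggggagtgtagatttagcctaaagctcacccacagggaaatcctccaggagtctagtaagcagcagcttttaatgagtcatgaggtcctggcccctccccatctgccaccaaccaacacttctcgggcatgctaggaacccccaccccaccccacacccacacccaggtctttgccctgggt
Nr1i2, which encodes the pregnane X receptor PXR, had a log2 change of 0.22 (SE 0.093, adjusted p = 0.214), with 51.0 to 64.0 CPM by day and 61.2 to 70.7 CPM by night. Of 13 targets of CAR and PXR, 2 rose at night and 11 had a change above 0 (median 0.64), but without control ZT18 replicate 1 only 6 of these 13 were above 0 and the median was -0.036. Por, the electron donor of microsomal cytochromes P450, was at 25.6 to 34.0 CPM in the ZT6 livers and 48.4 to 70.4 CPM in the ZT18 livers. It rose by 1.04 (SE 0.14, adjusted p = 0.00726) and passed in all 8 fits that left out a library. Cyp2b10, the classical target of CAR, was at or below 0.144 CPM in the ZT6 livers and at 0.422 to 2.68 CPM in the ZT18 livers (log2 3.44, SE 0.70, adjusted p = 0.0336), highest in control ZT18 replicate 1. It passed in 2 of the 8 fits that left out a library, those without control ZT18 replicate 1 and without control ZT18 replicate 2.

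Among the hormone receptors, Esr1, the estrogen receptor alpha, had 10.8 and 9.87 CPM in the control day livers, 21.3 and 16.2 in the control night livers, 9.22 and 11.05 in the treated day livers and 18.4 and 14.6 in the treated night livers. Night and day livers did not overlap, and the highest value was in control ZT18 replicate 1. The deposited Esr1 transcript lies on the plus strand of chromosome 10, from 4611989 to 5005614, with 10 exons. Esr1 rose by 0.78 (SE 0.13, edgeR adjusted p = 0.0149), and by 0.67 without that library (adjusted p = 0.0153). Its adjusted p ranged from 0.0152 to 0.0641 over the fits that left out a library, 4 of which it passed, and was 0.0565 with limma on log2(FPKM + 0.1). Thra, which encodes thyroid hormone receptor alpha, was at 11.0 and 9.87 CPM by day and 7.76 and 6.04 by night in control livers, and 10.8 and 10.7 by day and 6.70 and 6.05 by night with sudachitin. It fell by 0.67 (SE 0.12, adjusted p = 0.0214) and passed in 3 of the 8 fits that left out a library. The deposited Thra transcript (chromosome 11, 98741873 to 98765111, plus strand, 9 exons) has no exonic base in common with the neighbouring clock gene Nr1d1. Thrb, which carried more of the thyroid hormone receptor FPKM, had a log2 change of -0.14 (SE 0.11, adjusted p = 0.523). Nr3c1 and Nr3c2, the glucocorticoid and mineralocorticoid receptors, had log2 changes of -0.19 (SE 0.097, adjusted p = 0.305) and -0.22 (SE 0.12), and all 4 night livers were below all 4 day livers for Nr3c2.

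All 4 thyroid hormone targets had a change above 0 at night (median 0.58) and 2 of them rose. Thrsp, which promotes lipogenesis, rose by 1.76 (SE 0.26, adjusted p = 0.0100), from 220 to 514 CPM over the ZT6 livers to 762 to 1872 CPM over the ZT18 livers. Dio1, which activates thyroid hormone, rose by 0.61 (SE 0.12, adjusted p = 0.0291). Of 10 glucocorticoid receptor targets 9 had a change above 0 (median 0.61) and 2 rose. Dusp1, a phosphatase of MAP kinases, rose by 1.41 (SE 0.23, adjusted p = 0.0153), and Fkbp5, a chaperone partner of the receptor, rose by 0.82 (SE 0.15, adjusted p = 0.0241). Without control ZT18 replicate 1 both lists still had 2 genes that rose. Of the thyroid hormone targets 1 passed, Thrsp, without control ZT6 replicate 1, control ZT18 replicate 2, sudachitin ZT6 replicate 1, sudachitin ZT6 replicate 2 or sudachitin ZT18 replicate 1. Of the glucocorticoid receptor targets 1 passed, Dusp1, without control ZT6 replicate 2, sudachitin ZT6 replicate 2 or sudachitin ZT18 replicate 1, and 0 passed when sudachitin ZT6 replicate 1 was left out.

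Among the retinoid receptors, Rara, the most abundant retinoic acid receptor here, was at 18.4 and 19.7 CPM in the control day livers, 11.9 and 13.3 in the control night livers, 19.6 and 19.2 in the treated day livers and 14.6 and 15.9 in the treated night livers. It fell by 0.47 (SE 0.093, edgeR adjusted p = 0.0296), with no overlap between night and day, and passed in 2 of the 8 fits that left out a library. The control night livers were the 2 lowest. Its transcript lies on the plus strand of chromosome 11, from 98927818 to 98974162, with 9 exons. Rxra stood at 371 and 422 CPM by day and 315 and 261 by night in control livers, and 406 and 371 by day and 335 and 333 by night with sudachitin. Night and day did not overlap for Rxra either, but its log2 change of -0.34 (SE 0.099, adjusted p = 0.0984) did not pass. Rxrb, Rxrg and Rarg had log2 changes of -0.14 (SE 0.099), -0.30 (SE 0.24) and -0.04 (SE 0.16). Of 10 genes of retinoic acid handling 8 were tested, 4 had a change above 0 (median -0.16) and 2 fell at night. Stra6l, a membrane receptor for retinol-binding protein, fell by 0.55 (SE 0.089, adjusted p = 0.0132), and Dhrs3, which reduces retinal to retinol, fell by 0.36 (SE 0.073, adjusted p = 0.0332). Dhrs3 passed in 1 of the 8 fits that left out a library, the one without control ZT18 replicate 1. Stra6l passed in 6 of them, failing without control ZT6 replicate 1 or sudachitin ZT18 replicate 1.

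Among the HNF4 and orphan receptors, Nr5a2 (LRH-1), a regulator of bile acid and cholesterol genes, was at 23.7 and 24.2 CPM in the control day livers, 19.0 and 16.2 in the control night livers, 23.6 and 24.6 in the treated day livers and 15.8 and 17.97 in the treated night livers. The 4 day values lay close together, between 23.6 and 24.6 CPM, and the night values between 15.8 and 19.0 CPM. Nr5a2 fell by 0.48 (SE 0.087, edgeR adjusted p = 0.0216) and passed in 2 of the 8 fits that left out a library. Its transcript lies on the minus strand of chromosome 1, from 136845314 to 136960380, with 8 exons. The window before it is printed because it was the only one of the same 5 windows to hold the half-site letters, in capitals, 64 bases before the start of the RefSeq entry.
Nr5a2, chr1:136960449-136960698, minus strand: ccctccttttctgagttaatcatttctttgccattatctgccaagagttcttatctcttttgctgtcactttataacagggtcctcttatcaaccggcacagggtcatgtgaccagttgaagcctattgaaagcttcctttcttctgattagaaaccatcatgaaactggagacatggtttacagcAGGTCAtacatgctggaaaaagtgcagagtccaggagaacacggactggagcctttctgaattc
Hnf4a was at 444 and 484 CPM by day and 467 and 416 by night in control livers, and 549 and 555 by day and 582 and 447 by night with sudachitin. Both treated day livers were above every control liver, night and day overlapped, and the night-to-day log2 change was -0.09 (SE 0.10). Esrra, the estrogen-related receptor of mitochondrial genes, and the low-level Nr2f1 were higher in all 4 night than in all 4 day livers, with log2 changes of 0.33 (SE 0.099, adjusted p = 0.107) and 0.79 (SE 0.26, adjusted p = 0.128) that did not pass. Nr2f6 was lower in all 4 night livers, with -0.32 (SE 0.10, adjusted p = 0.128). The other orphan receptors Nr2c1, Nr2c2, Nr2f2, Nr6a1 and Esrrg had log2 changes between -0.19 and 0.19, none of which passed. Exons of Nr2c2 share 3533 of 7632 bases with Mrps25 on the opposite strand, those of Nr2f6 256 with Ocel1, those of Nr3c2 92 with Gm10649 and those of Esrra 73 with Trmt112, so their levels carry the same limit as that of Nr1i3. Of 10 HNF4 alpha targets, 6 had a change above 0 (median 0.053) and 1 rose, G6pc, the last enzyme of glucose release, by 1.11 (SE 0.24, adjusted p = 0.0374). It passed in 2 of the 8 fits that left out a library, those without control ZT18 replicate 1 and without sudachitin ZT18 replicate 2.

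Nr0b2 encodes SHP, a receptor without a DNA-binding domain that represses others and is induced by bile acids through FXR. Its spread was wide, at 34.0 and 76.5 CPM in the control day livers, 40.5 and 24.9 in the control night livers, 64.1 and 38.0 in the treated day livers and 17.8 and 50.1 in the treated night livers. The highest liver had 4.30 times the level of the lowest, mice of the same group differed strongly, and the log2 change of -0.67 (SE 0.36, adjusted p = 0.322) did not pass. The early response receptors Nr4a1 and Nr4a2 were low, at 0.822 to 3.34 and 0.216 to 1.19 CPM, with log2 changes of -0.52 (SE 0.36) and 0.62 (SE 0.45).

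The same comparison was then made within each treatment, 2 livers against 2. In control livers 1 of 31 receptors (3.23%) was called, against 0.524% of all genes. This was Ppard, which rose by 1.45 (SE 0.23, edgeR adjusted p = 0.0430). The call did not pass without control ZT6 replicate 1 (adjusted p = 0.325), control ZT6 replicate 2 (0.251), control ZT18 replicate 1 (0.0805), sudachitin ZT6 replicate 1 (0.0805) or sudachitin ZT6 replicate 2 (0.0785), nor with total-count scaling (0.0555), only the groups compared (0.109), a replicate block (0.0543) or limma (0.0738 on log2(FPKM + 0.1) and 0.0732 on log2(FPKM + 1)). Leaving out control ZT18 replicate 2 left 1 control night liver, control ZT18 replicate 1, the library that stood apart. No further call of that fit is named. With every library, the next receptors by p were Rara with -0.60 (SE 0.13, edgeR adjusted p = 0.117), Esr1 with 0.86 (SE 0.19, adjusted p = 0.120) and Nr1h2 with -0.40 (SE 0.11, adjusted p = 0.203), none of which passed. In sudachitin livers edgeR called 0 of 31 receptors, against 0.186% of all genes, with 10 receptors and 12.6% of all genes at an unadjusted p under 0.05. DESeq2 and limma called 0 as well, but edgeR with no filter on low counts called 4, Esr1, Nr0b2, Nr1i3 and Thra. In the main fit the edgeR adjusted p of Nr0b2 was 0.694. The share of all genes called without the filter is not given here, so these 4 are no result about receptors alone. The number called over all genes ran from 1 to 861 over all alternatives, against 27 in the main fit. Receptors with the smallest p in the main fit were Thra with -0.76 (SE 0.18, adjusted p = 0.150), Nr5a2 with -0.51 (SE 0.13, adjusted p = 0.171), Esr1 with 0.70 (SE 0.19, adjusted p = 0.187) and Nr1i3 with 0.59 (SE 0.16, adjusted p = 0.192). Across the 31 receptors, the night-to-day changes in the 2 treatments, which share no library, had a Pearson r of 0.808 and a Spearman rho of 0.788, and 26 had the same sign. Over all tested genes r was 0.406 and 65.9% had the same sign. These are descriptions across genes, which are not independent replicates.

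**Figure D4:**
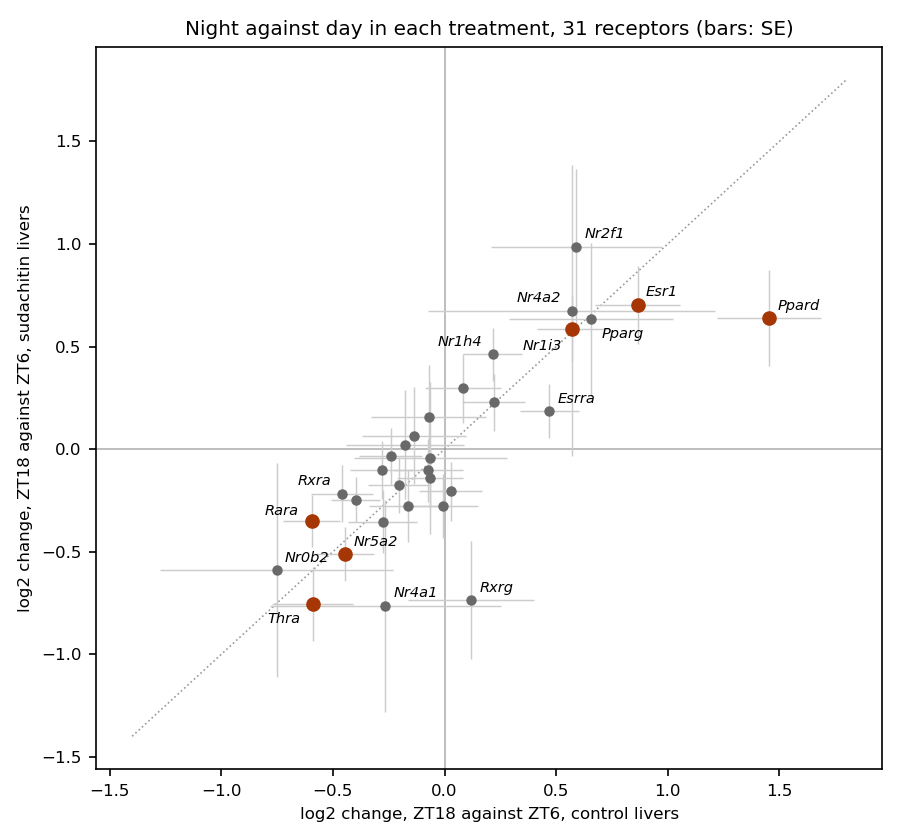
Log2 change from ZT6 to ZT18 of the 31 tested receptors in control livers (x axis) and in sudachitin livers (y axis), with SE as bars; red points mark the 6 that passed over both treatments and the dotted line marks equal change. Points lie near the line for most receptors, with Ppard at 1.45 in control and 0.64 in sudachitin livers and Rxrg at 0.12 and -0.74.

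The test of a difference between those changes, the interaction of treatment and time, called 0 receptors and 0% of all genes with edgeR, with 1 receptor and 3.78% of all genes at an unadjusted p under 0.05. DESeq2 and limma called 0 receptors. That receptor was Ppard, with a difference of -0.82 (SE 0.33, edgeR adjusted p = 0.998). The next were Rxrg with -0.85 (SE 0.40), Esrra with -0.28 (SE 0.19) and Rara with 0.24 (SE 0.18), all at an adjusted p of 0.998. The Ppard difference between treatments was therefore not detectable at this number of mice after adjustment over all genes.

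Sudachitin was compared with control at each time. At ZT6 edgeR called 0 of 31 receptors and 0% of all genes. DESeq2 and limma called 0 receptors as well, but limma did not test Esrrg, which its FPKM filter left out. With edgeR 0 receptors had an unadjusted p under 0.05, against 2.12% of all genes. At this time the Kupffer cell markers named above were higher with sudachitin in 8 of 8, and their part in the receptor values was not tested. The smallest p-values were those of Esrrg with -0.78 (SE 0.36), Hnf4a with 0.25 (SE 0.15), Nr6a1 with -0.34 (SE 0.27) and Esrra with 0.16 (SE 0.13), each with an edgeR adjusted p of 0.9999. At ZT18 edgeR, DESeq2 and limma called 0 receptors, against 0.0138% of all genes called by edgeR. With edgeR 3 receptors had an unadjusted p under 0.05, against 6.51% of all genes. Ppard was 9.84 and 15.6 CPM with sudachitin and 19.7 and 21.7 CPM in control livers, a log2 difference of -0.70 (SE 0.22, adjusted p = 0.708). Rxrg, the least abundant retinoid X receptor, was 3.32 and 3.70 CPM with sudachitin and 6.58 and 4.85 CPM in control livers (log2 -0.71, SE 0.29, adjusted p = 0.744). In both genes the 2 sudachitin livers were below the 2 control livers, in a comparison in which the groups did not overlap in 10 of 31 receptors and in 30.8% of all genes. Nr2f2 (COUP-TFII) with -0.34 (SE 0.14, adjusted p = 0.745) and Nr3c1 with 0.31 (SE 0.14, adjusted p = 0.772) followed. Leaving out single livers moved the Ppard difference to -0.41 (sudachitin ZT18 replicate 1), -1.07 (sudachitin ZT18 replicate 2) or -0.77 (control ZT18 replicate 1). The difference was -0.46 for Rxrg without control ZT18 replicate 1, -0.18 for Nr2f2 without control ZT18 replicate 2 and 0.17 for Nr3c1 without sudachitin ZT18 replicate 2. With no filter on low counts Ppard passed at this time (edgeR adjusted p = 0.0396). The number called over all genes at this time ran from 0 to 488 over all alternatives, against 2 in the main fit.

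Over both times, 4 sudachitin against 4 control livers, 0 of 31 receptors passed with edgeR, and 0.0207% of all genes were called by edgeR. DESeq2 and limma called 0 receptors as well, but limma did not test Esrrg, Nr2f1, Nr4a1 and Nr4a2, which its FPKM filter left out. With edgeR 3 receptors had an unadjusted p under 0.05, against 4.41% of all genes. Esrrg, an estrogen-related receptor expressed at low level, was 2.95 and 3.53 CPM by day and 3.91 and 2.25 by night in control livers, and 1.60 and 2.18 by day and 1.48 and 2.17 by night with sudachitin. No sudachitin liver overlapped with a control liver for this 1 receptor of 31 (3.23%), against 1.83% of all genes, and its log2 difference was -0.77 (SE 0.24, edgeR adjusted p = 0.996), or -0.59 without control ZT18 replicate 1. Hnf4a differed by 0.24 (SE 0.10), Nr3c1 by 0.22 (SE 0.097) and Nr2f2 by -0.23 (SE 0.10, or -0.14 without control ZT18 replicate 2), each with an adjusted p of 0.996. Of the target lists, none had a member that passed between treatments over both times. The PPAR alpha targets had 1 of 15 differences above 0 (median -0.28), beside 49.7% of all genes above 0 (median -0.00083). Their median was only -0.062 without control ZT18 replicate 1. In that library these genes summed to 18055 CPM, against 10318 to 14389 CPM in the other libraries. At ZT18 2 of the 15 were above 0 (median -0.27), and 11 (median 0.23) without that library. The CAR and PXR targets had 3 of 13 differences above 0 over both times (median -0.54), with 6 above 0 at ZT6 (median -0.021) and 4 at ZT18 (median -0.99). Without control ZT18 replicate 1, which held 4629 CPM of them against 2046 to 3070 CPM in the other libraries, 7 were above 0 over both times (median 0.016) and 6 at ZT18 (median -0.085). No PPAR alpha, CAR or PXR target passed at ZT18 with every library. Without control ZT18 replicate 2, the library that stood apart was the 1 control liver left at that time, so the calls of that fit are not given.

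**Figure D5:**
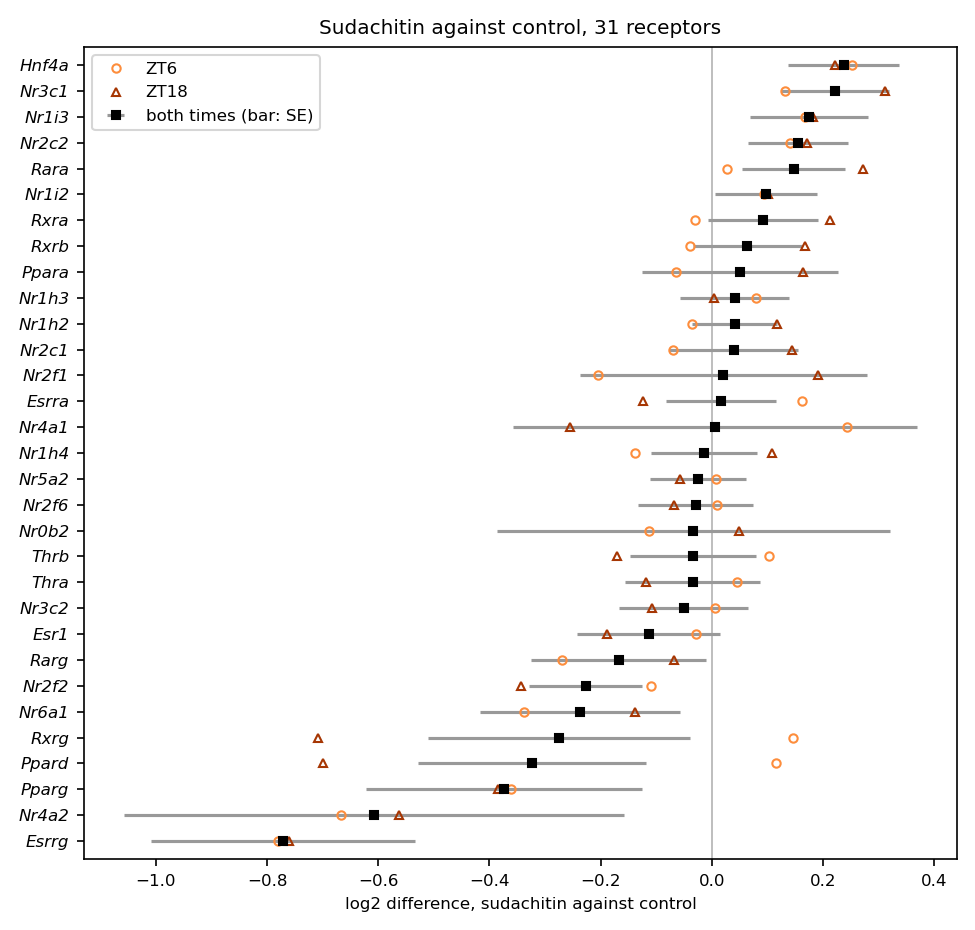
Log2 difference between sudachitin and control for the 31 tested receptors at ZT6 (circles), at ZT18 (triangles) and over both times (squares, with SE as bars), sorted by the last. Esrrg lies lowest at -0.77 over both times and Hnf4a highest at 0.24, and Ppard and Rxrg show the widest gap between the 2 times.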

How the data were processed

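Liver RNA of 8 mice was sequenced as poly(A)-selected, unstranded 150-base read pairs, per the labels' protocols. Trimmomatic 0.39, STAR 2.7.2a, HOMER and genome GRCm38 (mm10) are named in the submitters' processing notes, without roles. The authors deposited estimated counts in exons, 1 transcript per gene, in steps of 0.5 per the file values, and FPKM, which equals the count divided by exon length and by the library total given per the file headers (largest difference 4e-11). The sources used here do not say how reads with several positions were counted.

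Counts were rounded to whole numbers, 0.5 upwards, and tested in R 4.3.3 with edgeR 4.0.16 (TMM, filterByExpr by group, quasi-likelihood F test) on all 14506 transcripts that passed the filter, of which 31 were receptors. Benjamini-Hochberg adjustment ran over all of them, with a threshold of 0.05. Means of the 4 groups were fitted for the comparisons within a treatment or time, and main effects of treatment and time for those over both, 7 comparisons in all. The SE is the log2 change divided by the square root of F. The labels do not say more of the 2 mice per group than their titles, so p-values measure the spread between these samples. Alternatives were DESeq2 1.42.0, limma 3.58.1 on log2(FPKM + 0.1) or log2(FPKM + 1) with at least 0.5 FPKM in 2 libraries, other scalings and filters, a replicate block, and each library left out. The FPKM filter left Esrrg, Nr2f1, Nr4a1 and Nr4a2 out of every limma fit. The leave-out of libraries for the accompanying lists was chosen after seeing the data. The script was tested on simulated data.

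Named were receptors with an adjusted p under 0.05, the 4 with the smallest p in each comparison, and up to 2 members with the smallest p of each accompanying list. Klb, Tomm40l, Mrps25 and the other receptors given with values were named after their values were seen. Members and lists were chosen with earlier results of these data known. A member of the PPAR alpha list is not reported by name here.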

Additional observations from a re-analysis of the deposited data

How the results depend on the processing

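The count of receptors called between night and day in control livers, 1 with edgeR, was 2 with DESeq2, 0 with total counts only, 5 with no filter on low counts, 0 with only the groups compared, and 0 with limma on either pseudocount. It ran from 0 to 2 when 1 library was left out. With no filter the count was 4 in sudachitin livers between night and day and 1 for sudachitin against control at ZT18, against 0 in each with the filter. The number called over all genes moved under the alternatives too, over the ranges given below. The moves of these receptor counts are therefore not a result about receptors alone. Over both treatments the count of 6 ran from 0 to 7 when 1 library was left out. The cause of these moves was not tested, except that leaving out a library leaves fewer samples, and where it leaves 1 liver in a group that liver is assumed to vary like the other groups. The labels do not say that the replicate numbers pair the mice. Deviations of same-numbered livers correlated at -0.204 to 0.281, which with so few mice cannot show whether any shared a cage or day. With the replicate block the count was 6 over both treatments and 0 in control livers (Ppard adjusted p = 0.0543), and no other count of receptors called changed. Among the counts under alternatives, 95 stayed within 1.5 times their main value and 21 did not. Only night against day in control livers and over both treatments had a main count above 0. In the other comparisons a count that stayed was 0 in both fits, so the 95 do not measure how stable the calls were. Among values of single receptors under alternatives, 438 kept their direction and side of the threshold, 45 no longer passed, 7 newly passed and 0 reversed. Most of these values belong to receptors that did not pass in the main fit and so had no call to lose. A value without an adjusted p was counted as kept. The 45 all come from the 6 receptors called over both treatments and from Ppard in control livers, so the 438 do not measure how stable those calls were. Over all genes, the number called between night and day in control livers was 76, with a range of 4 to 881 over all alternatives. In sudachitin livers between night and day it was 27, with a range of 1 to 861. For sudachitin against control at ZT18 it was 2, with a range of 0 to 488. It was 534 over both treatments, with a range of 164 to 1629, and for sudachitin against control over both times it was 3, with a range of 2 to 309. Depth limits Vdr, Hnf4g, Rarb and Nr4a3, which could not be tested.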

Other observations

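Receptors act through coactivators and corepressors. With edgeR 0 of 12 coactivators passed between night and day over both treatments (4 at an unadjusted p under 0.05, 7 above 0, median log2 0.065), and 0 of 10 corepressors (3 at an unadjusted p under 0.05, 6 above 0, median 0.081). Over all genes in that comparison, 20.4% had an unadjusted edgeR p under 0.05 and 52.7% were above 0. The smallest p among coactivators was that of Ppargc1b, which encodes PGC-1 beta and has a role in mitochondrial and lipogenic genes. It was at 4.84 to 5.86 CPM in the ZT6 livers and 2.34 to 4.71 CPM in the ZT18 livers, with a log2 change of -0.76 (SE 0.23, edgeR adjusted p = 0.104), and it passed, as lower, without control ZT18 replicate 2. Tbl1x, a subunit of the corepressor complex of NCOR, had a log2 change of -0.25 (SE 0.082, adjusted p = 0.127).

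Of 10 immediate early genes, the class to which the NR4A receptors belong by behaviour, 9 were tested. Junb, a subunit of the AP-1 factor, fell at night by 0.77 (SE 0.18, edgeR adjusted p = 0.0487) and passed in 1 of the 8 fits that left out a library, the one without sudachitin ZT18 replicate 1. Btg2, which restrains cell growth, had a log2 change of 1.14 (SE 0.32, adjusted p = 0.0872) and passed without sudachitin ZT18 replicate 2, so members of this list lay on both sides of 0. Control ZT18 replicate 2 was the highest or lowest library in 13 of the 31 tested receptors (41.9%), against 25.5% of all genes, whereas control ZT18 replicate 1 was so in 16.1% of receptors against 38.2% of all genes.

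The upstream windows of the 32 receptors that have one were rich in G and C, with a median of 61.6% against 52.4% for all windows. Mrps25, whose exons overlap those of Nr2c2, had a night-to-day log2 change of 0.00065 (SE 0.080).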
